A study of Mus musculus with 2 samples.

Results

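The nuclear-encoded genes of the respiratory chain were taken as all genes whose symbol starts with *Nduf*, *Uqcr*, *Cox4*, *Cox5*, *Cox6*, *Cox7*, *Cox8* or *Atp5*, together with *Cycs*, *Cyc1*, *Sdha*, *Sdhb*, *Sdhc* and *Sdhd*. Of the 27998 genes in the count tables, 94 matched, and the 88 with at least 20 unique molecular identifiers (UMIs) over both libraries were kept. Grouped by symbol, with *Ndufa4* put in complex IV, they were 36 genes of complex I, 4 of complex II, 9 of complex III, 14 of complex IV and 17 of complex V. The others were cytochrome c and 7 *Ndufaf* assembly factors of complex I. Symbols do not mark subunits alone, as with *Cox7a2l* in complex IV and *Atp5sl* in complex V, described below. The 6 genes left out were *Cox7a1* with 11 UMIs, *Cox4i2* with 4 UMIs, and *Cox7b2*, *Cox8b*, *Cox8c* and *Ndufa4l2*, which had no UMI. Among these are the isoforms known from muscle, lung and testis.

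The respiratory chain sits in the inner mitochondrial membrane. Complexes I and II pass electrons from NADH and succinate to ubiquinone, complex III hands them to cytochrome c, complex IV passes them to oxygen, and complex V uses the resulting proton gradient to make ATP. Most subunits are encoded in the nucleus and a few in mitochondrial DNA, so that each of complexes I, III, IV and V is built from both genomes. In lymphocytes, oxidative phosphorylation is known to be raised as resting cells enter growth and division, whereas mature neutrophils hold few mitochondria and live largely on glycolysis.

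CD45+ cells, which are leukocytes and microglia, were sorted from the brains of untreated C57Bl/6 mice at postnatal day 21 (p21). The twi mice were galc-/- and lack galactosylceramidase, the lysosomal enzyme missing in Krabbe's disease, and the WT mice were their galc+/+ littermates. Each genotype is represented by a single 10x 3′ v2 library made from the cells of 2 to 3 animals together. The mutation is in every cell of the animal. Since neither genotype was replicated, nothing was tested, and the 95% intervals given with shares and ratios cover counting error only. *Galc* itself had 4 UMIs in WT and 8 in twi, and a 3′ count does not read the mutation.

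After barcodes with more than 15% mitochondrial UMIs were left out, 1271 WT barcodes with 3741477 UMIs and 1207 twi barcodes with 4791200 UMIs remained, and the libraries shared 0 barcode sequences. Barcodes were put into classes by UMIs of lineage markers. The WT and twi libraries held 115 and 100 naive T cells, 104 and 548 effector T cells, 16 and 45 cycling T cells, 68 and 62 NK cells, 556 and 166 B cells, 221 and 60 neutrophils, and 42 and 52 monocytes. Lists of other markers were highest in the class they mark for naive T, cycling T, NK, B, neutrophil and monocyte classes, for example with 5625 and 5698 CPM (UMIs scaled to a fixed total per class and library) for 6 neutrophil genes in neutrophils and 7600 and 6476 CPM for 4 B cell genes in B cells. The 4 effector T genes did not mark their class alone, with 3177 and 3498 CPM in effector T cells but 5936 and 4829 CPM in NK cells and 4197 and 4619 CPM in neutrophils. Other lists differed more between WT and twi, with 27469 and 44237 CPM for 5 monocyte genes in monocytes and 16913 and 11654 CPM for 4 NK genes in NK cells. In cycling T cells 3 naive T genes stood at 666 and 190 CPM. Marker levels of these classes were thus not alike in WT and twi, and the part of this in their ratios was not tested. The 3 red cell genes *Hba-a1*, *Hbb-bs* and *Alas2* stood at 926 to 1216 CPM in the 7 WT classes and at 482 to 734 CPM in the 7 twi classes. Whether this level was free RNA, and its part in the results, was not tested. In barcodes with no lineage these genes stood at 153566 CPM in WT and 187575 CPM in twi. Those barcodes stayed in the values over all cells and in the class mix. *Xist* had no UMI in the WT library and was seen in 47.6% of twi barcodes, while Y-linked transcripts were seen in 38.3% and 19.3%, so the libraries also differ in the sex of their cells.

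Over all cells, the 88 genes took nearly the same share of all UMIs in both genotypes, but the ratio depended on the total. They made up 1.97% of UMIs in WT (73860 UMIs) and 2.06% in twi (98687 UMIs), and the ratio of twi to WT was 1.04 (1.03 to 1.05). Ribosomal protein transcripts took 20.9% of UMIs in WT and 28.6% in twi. Without mitochondrial and ribosomal protein UMIs in the total, the ratio was 1.16. Without the deepest 5% of barcodes it was 1.09. As shares of all UMIs, the complexes differed little from each other in their ratios. The share of complex IV was 0.542% in WT and 0.578% in twi, with a ratio of 1.07 (1.05 to 1.09), that of complex V was 0.574% and 0.600%, a ratio of 1.04 (1.03 to 1.06), and that of complex I was 0.567% and 0.585%, a ratio of 1.03 (1.01 to 1.05). Complex III had a ratio of 1.03 (1.00 to 1.06) and complex II, which also works in the citric acid cycle, a ratio of 0.958 (0.899 to 1.02).

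The make-up of the libraries moved with the small excess in the share of all UMIs. Effector T cells made up 8.18% of WT and 45.4% of twi barcodes, while neutrophils, which had the lowest share of these transcripts, made up 17.4% and 4.97%. When the WT class levels were combined with the class mix of the twi library, the share was 2.07%, a ratio of 1.05 to WT. When the twi class levels were combined with the WT mix, it was 1.91%, a ratio of 0.966 (0.954 to 0.978). Both mixes also took in the barcodes kept apart from the named classes. Among these, barcodes with more than 1 lineage stood at 2.55% in WT and 2.13% in twi (ratio 0.836). Barcodes with no lineage, which were high in the red cell genes, stood at 1.67% and 1.40% (ratio 0.837). Other T cells had a ratio of 1.01 and C1q-positive barcodes one of 1.705. Barcodes with more than 1 lineage held 7.63% of WT UMIs, and monocytes, with a ratio of 0.892, held 8.29%. In every other named class the interval of the ratio held 1, as given below. How much of the fixed mix ratio came from monocytes and from the barcodes kept apart was not tested. The ratio over all cells and the ratio at a fixed class mix thus lay on opposite sides of 1. A version of the latter from means per barcode gave 1.00. It weighted the twi classes by WT UMIs but the WT value by barcodes, so its class mix was not fixed.

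The classes differed far more from each other than the genotypes did. In WT, the 88 genes took 1.12% of UMIs in neutrophils, 1.78% in naive T cells, 2.06% in effector T cells, 2.14% in B cells, 2.21% in NK cells, 2.53% in cycling T cells and 2.67% in monocytes. In twi, the shares in the same order were 1.09%, 1.80%, 2.11%, 2.1%, 2.19%, 2.52% and 2.38%. Cycling T cells and monocytes stood at the top in both libraries but in opposite order, since monocytes were 1.06 times cycling T cells in WT (1.01 to 1.11) and cycling T cells were 1.06 times monocytes in twi (1.03 to 1.09). Effector T and B cells of the twi library did not differ beyond counting error, with a ratio of 1.00 (0.980 to 1.03).

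**Figure D1:**
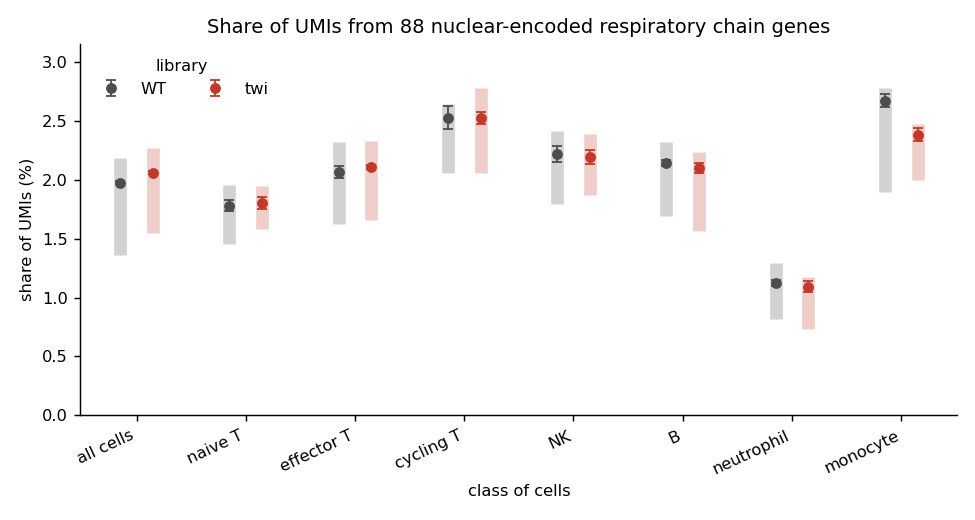
Share of UMIs (%) from the 88 nuclear-encoded respiratory chain genes in all cells and in each class (x axis), for the WT (grey) and twi (red) libraries. Points are pooled shares with exact 95% counting intervals and pale bars span the interquartile range over single barcodes. Neutrophils sit near 1.1%, cycling T cells near 2.5%, and the monocytes are the only one of the 7 classes in which the intervals of WT and twi are apart.

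Within each class, WT and twi lay close together in 6 of the 7 classes. The ratio of twi to WT was 1.01 in naive T cells (0.975 to 1.05), 1.02 in effector T cells (0.995 to 1.05) and 0.998 in cycling T cells (0.956 to 1.04). It was 0.990 in NK cells (0.950 to 1.03), 0.981 in B cells (0.958 to 1.00) and 0.971 in neutrophils (0.925 to 1.02). These intervals all hold 1. They cover counting error only. With each barcode thinned to 1000 UMIs, the ratio was 0.840 in cycling T cells and 0.898 in NK cells. The classes were then gated anew on the thinned counts with the same minimums, so they did not hold the same barcodes. In barcodes with a Y transcript and no *Xist*, the ratio was 1.12 in cycling T cells, from 10 WT and 8 twi barcodes. Monocytes alone had an interval below 1, with 2.67% in WT and 2.38% in twi (ratio 0.892, 0.864 to 0.921).

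Against naive T cells of the same library, members at least 1.5 fold apart were counted in each class. In effector T cells 13 of 79 members of WT were at least 1.5 fold higher (21.3% of all genes) and 2 lower (12.2% of all genes), and 15 of 85 members of twi were higher (26.9% of all genes) and 1 lower (14.1% of all genes). In NK cells 21 of 77 were higher in WT (33.8% of all genes) and 4 lower (17.3% of all genes), and in twi 17 of 77 were higher (30% of all genes) and 2 lower (15.6% of all genes). In B cells 27 of 84 were higher in WT (46.8% of all genes) and 4 lower (12.8% of all genes), and in twi 20 of 80 were higher (38.8% of all genes) and 3 lower (14.4% of all genes). The part of members 1.5 fold higher than in naive T cells was thus smaller than that of all genes in effector T, NK and B cells. Members and all genes were not matched in UMIs per gene, and the part of this in the counts was not tested. The summed share of the members was above that of naive T cells, at 1.159 and 1.169 times in WT and twi effector T, 1.245 and 1.218 in NK, and 1.202 and 1.165 in B cells. In monocytes 48 of 81 were higher in WT (41% of all genes) and 3 lower (20.3% of all genes), and in twi 28 of 78 were higher (34.4% of all genes) and 4 lower (25.2% of all genes). In neutrophils 46 of 78 were at least 1.5 fold lower in WT (52.1% of all genes) and 1 higher (25.7% of all genes), and in twi 47 of 75 were lower (57.5% of all genes) and 1 higher (21.2% of all genes).

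The order of the classes depended on the total it was measured against. Ribosomal protein transcripts took 38.0% of UMIs in WT naive T cells but 3.08% in WT neutrophils. As a share of the UMIs left without mitochondrial and ribosomal protein transcripts, the 88 genes made up 3.01% in WT and 3.02% in twi naive T cells, which then stood above B cells with 2.76% and 2.79%. Neutrophils remained lowest at 1.16% and 1.13%. Cycling T cells stood at 3.52% and 3.62%, so that their excess over naive T cells was 1.17 in WT and 1.20 in twi by this measure.

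Nuclear respiratory factor 1 (NRF1), the ETS factor GABP and YY1 are known regulators of nuclear genes for mitochondrial proteins, so their letters were searched in the promoters of the 88 genes, on both strands. RefSeq promoter sequences (250 bases before to 50 after the start, GRCm38.p6) were at hand for 71 of the 88. The NRF1 letters GCGCANGCG were in 22 of these 71 promoters (31.0%), against 6.47% of all 27025 genes with a promoter and 15% of the 8121 genes with at least 20 UMIs in these libraries. The ETS letters CCGGAAG were in 16 (22.5%, against 9.12% and 20.4%), and the YY1 letters AAGATGGC in 8 (11.3%, against 2.88% and 5.27%). The TATA letters TATAAA were in 5 (7.04%, against 14.2% and 6.80%). The ETS share was thus close to that of other genes seen in these cells and the NRF1 share was not, as a description without a test. The promoters of 6 members described below follow, from 120 bases before to 30 after the start, 5′ to 3′ in the direction of the gene, with the matches in capitals, where overlapping matches of both strands run together.
*Sdha* (NRF1 letters, chr13:74350211-74350360, minus strand): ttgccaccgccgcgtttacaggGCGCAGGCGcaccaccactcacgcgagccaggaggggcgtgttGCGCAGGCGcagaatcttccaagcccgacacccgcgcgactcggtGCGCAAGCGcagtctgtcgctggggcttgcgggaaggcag
*Ndufb4* (NRF1 letters, chr16:37654339-37654488, minus strand): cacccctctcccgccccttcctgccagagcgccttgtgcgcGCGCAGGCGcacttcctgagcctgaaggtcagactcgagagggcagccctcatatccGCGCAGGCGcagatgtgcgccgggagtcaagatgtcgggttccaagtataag
*Ndufaf4* (NRF1 letters, chr4:24897963-24898112, plus strand): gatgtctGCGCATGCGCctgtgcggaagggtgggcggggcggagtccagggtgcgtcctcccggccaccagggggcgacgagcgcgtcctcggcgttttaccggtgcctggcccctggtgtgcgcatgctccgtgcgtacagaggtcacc
*Ndufs8* (ETS letters, chr19:3912745-3912894, minus strand): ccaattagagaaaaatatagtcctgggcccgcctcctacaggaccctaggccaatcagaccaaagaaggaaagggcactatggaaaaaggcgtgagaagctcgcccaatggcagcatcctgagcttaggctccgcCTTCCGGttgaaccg
*Ndufb7* (ETS letters, chr8:83566638-83566787, plus strand): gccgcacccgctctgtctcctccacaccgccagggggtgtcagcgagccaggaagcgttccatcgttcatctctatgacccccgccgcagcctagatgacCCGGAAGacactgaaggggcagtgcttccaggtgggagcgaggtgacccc
*Ndufa3* (YY1 letters, chr7:3617253-3617402, plus strand): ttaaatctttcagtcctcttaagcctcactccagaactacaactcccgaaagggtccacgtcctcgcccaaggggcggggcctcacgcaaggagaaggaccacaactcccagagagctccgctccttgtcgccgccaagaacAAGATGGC

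Among T cells, the share was lowest in naive, higher in effector and highest in cycling cells in both libraries. Effector T cells held 1.16 times the share of naive T cells in WT (1.12 to 1.20) and 1.17 times in twi (1.14 to 1.20), and cycling T cells held 1.42 times the naive share in WT (1.36 to 1.49) and 1.40 times in twi (1.35 to 1.45). Cycling T cells were also the deepest T cells, with medians of 4406 and 8435 UMIs per barcode against 2629 and 2814 in naive T cells. All complexes were higher in cycling than in naive T cells. The ratios in WT and twi were 1.41 and 1.36 for complex I, 1.67 and 1.22 for complex II, 1.47 and 1.22 for complex III, 1.55 and 1.5 for complex IV, and 1.32 and 1.41 for complex V. Only the complex II ratio in twi had an interval that holds 1 (0.987 to 1.52).

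Among members with at least 20 UMIs in the compared classes, 36 of 77 were at least 1.5 fold higher in cycling than in naive T cells in WT (31.8% of all genes) and 32 of 79 in twi (33.1% of all genes). Only 4 in WT (18.5% of all genes) and 1 in twi (16.1% of all genes) were at least 1.5 fold lower. The median log2 ratio of members was 0.59 in WT and 0.46 in twi, where the median of all genes was itself 0.23 and 0.20. Scaled to the median gene, the ratio of the summed shares was 1.29 in WT and 1.17 in twi.

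Ranked by the smaller of the ratios in WT and twi, the largest ratios of cycling to naive T cells were in 3 subunits of complex IV and 2 of complex I. *Cox5a*, a subunit on the matrix side of complex IV, had 143 CPM in naive and 569 CPM in cycling T cells of WT, and 182 and 442 CPM in twi, ratios of 3.98 (2.66 to 5.98) and 2.43 (1.78 to 3.38). *Ndufb7*, an accessory subunit of complex I, had ratios of 3.0 (1.77 to 5.08) and 2.43 (1.68 to 3.58). *Ndufa4*, named for complex I but now assigned to complex IV, had 305 and 656 CPM in WT and 283 and 632 CPM in twi, ratios of 2.15 (1.56 to 2.96) and 2.23 (1.73 to 2.90). *Cox7a2* followed with 2.28 and 1.94 and *Ndufb9* with 1.93 and 2.47. The intervals of all 5 lay above 1 in either library. Because the 5 were picked by these same ratios, their intervals give no support of their own.

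Among the 58 members with at least 50 UMIs in both classes together in each library, *Cox7a2l* had the smallest ratio in either library. It encodes a factor that joins complexes III and IV into supercomplexes, of which C57Bl/6 mice are known to carry a shortened form. It had 678 CPM in naive and 347 CPM in cycling T cells of WT, and 831 and 487 CPM in twi, ratios of 0.512 (0.350 to 0.731) and 0.586 (0.482 to 0.711). The accessory subunits of complex I *Ndufa6* (0.608 and 0.826), *Ndufv3* (0.744 and 0.809) and *Ndufa7* (1.01 and 1.01) and the epsilon subunit of complex V *Atp5e* (0.979 and 1.08) also had ratios below or close to 1. Cytochrome c (*Cycs*) had a ratio of 1.20 in WT (0.717 to 1.95) and 2.18 in twi (1.5 to 3.24), and these intervals overlap.

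**Figure D2:**
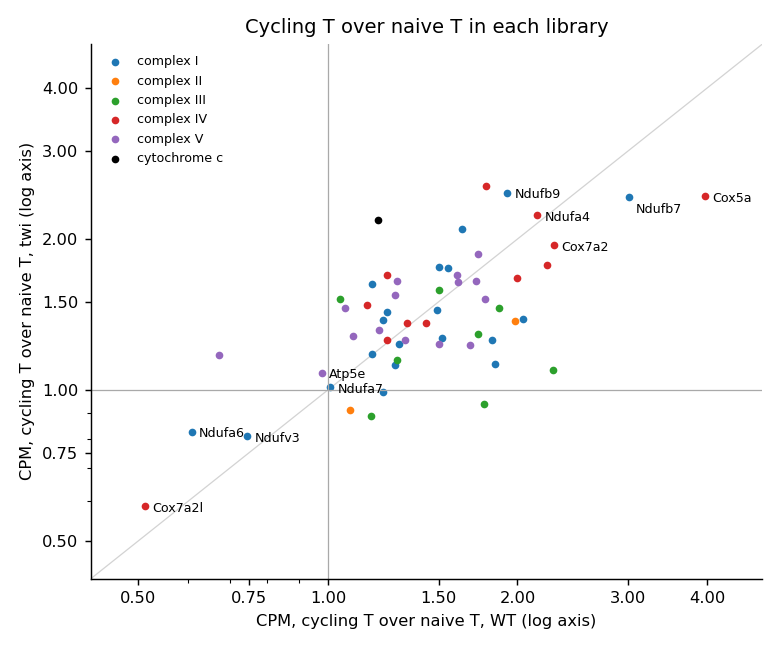
Ratio of CPM in cycling over naive T cells for each of 58 nuclear-encoded respiratory chain genes with at least 50 UMIs in both classes together in each library, WT on the x axis and twi on the y axis, both log axes, coloured by complex. Of the 58 genes 49 lie above 1 in both libraries and 3 below 1 in both, and *Cox7a2l* is the lowest. Of all genes with at least 20 UMIs in both classes together, 1560 of 2675 were higher in cycling T cells in WT and 2509 of 4118 in twi.

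A higher share in dividing cells was also present in B cells, monocytes and neutrophils, while NK cells held too few dividing cells for a clear value. When barcodes with a sum of at least 3 UMIs over 7 cycling genes were set apart within each lineage, a split made with the values in view, the share of the 88 genes was 2.87% in 28 cycling and 2.01% in 528 other B cells of WT, a ratio of 1.43 (1.39 to 1.48), and the ratio in twi was 1.51 (1.45 to 1.59) with 15 cycling cells. Against all other T cells, cycling T cells had ratios of 1.32 (1.27 to 1.38) and 1.23 (1.20 to 1.26). In monocytes the ratio of cycling to other cells was 1.38 in WT (1.32 to 1.45) and 1.37 in twi (1.29 to 1.46), with 10 and 3 cycling cells. In neutrophils it was 1.35 (1.27 to 1.44) and 1.56 (1.39 to 1.74), with 10 and 2. In NK cells it was 1.10 (0.907 to 1.31) in WT from 1 cycling cell, with an interval that holds 1, and 1.17 (1.07 to 1.28) in twi from 3. Without mitochondrial and ribosomal protein UMIs in the total, the ratios in WT were 1.13 in T cells, 1.40 in B cells, 1.42 in monocytes, 1.38 in neutrophils and 1.00 in NK cells. Cycling barcodes were deeper than the others in every lineage, for example 5530 against 1972 UMIs by median in WT B cells. The split used cycling genes alone, so both groups were not matched in depth or in stage of development. The part of either in these ratios was not tested.

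The genes encoded in mitochondrial DNA did not follow in T and B cells. The 13 mt- encoded subunits, which belong to the same complexes, took 2.18% of UMIs in WT and 2.33% in twi, with a ratio of 1.07 (1.06 to 1.08). In cycling T cells their share was 0.973 times the naive share in WT (0.933 to 1.01) and 0.692 times in twi (0.672 to 0.713), against 1.42 and 1.40 for the nuclear-encoded genes. These ratios too depended on the total. Without ribosomal protein UMIs, the mt- encoded share was 4.76% in naive and 3.84% in cycling T cells of WT, and 4.87% and 2.94% in twi. In cycling B cells it was 0.743 times that of other B cells in WT (0.719 to 0.769) and 0.729 times in twi (0.695 to 0.765). In cycling monocytes and neutrophils it was higher than in the other cells of the class, at 1.06 and 1.13 times in WT and 1.11 and 1.89 times in twi, where the value in the 2 cycling neutrophils was above that of the nuclear-encoded genes. In NK cells it was 0.463 times in WT and 1.47 times in twi, from 1 and 3 cycling cells.

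**Figure D3:**
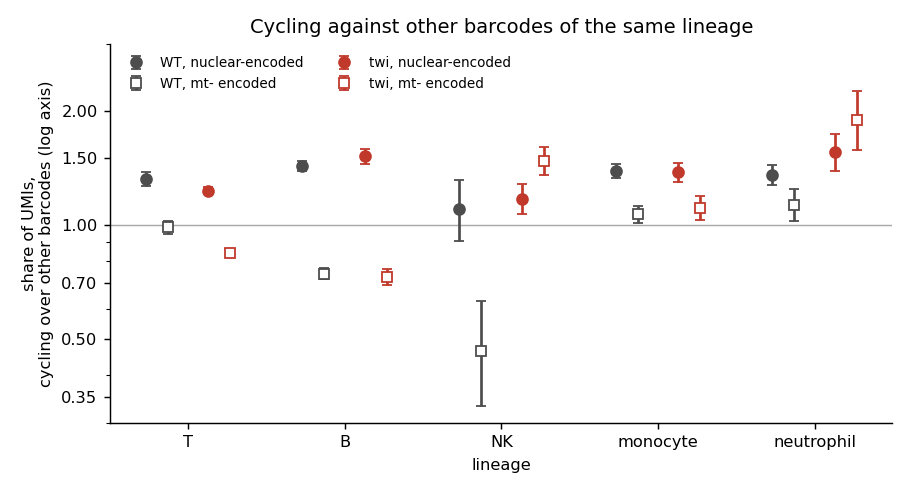
Share of UMIs in cycling barcodes over that in the other barcodes of the same lineage (y axis, log axis), for the 88 nuclear-encoded genes (filled circles) and the 13 mt- encoded subunits (open squares) in WT (grey) and twi (red), with 95% counting intervals. The circles lie at 1.23 to 1.56 in T cells, B cells, monocytes and neutrophils and at 1.10 and 1.17 in NK cells. The squares lie below 1 in T and B cells, above 1 in monocytes and neutrophils, and on either side of 1 in NK cells, which rest on 1 and 3 cycling barcodes.

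Between genotypes as well, mt- encoded and nuclear-encoded subunits parted within classes. In effector T cells the mt- encoded share was 2.74% in WT and 2.39% in twi, with a ratio of 0.873 (0.855 to 0.893), and in cycling T cells it was 2.87% and 2.11%, a ratio of 0.736 (0.706 to 0.768), while the nuclear-encoded share of both classes differed by less than counting error. A list of 4 NK cell genes moved with these classes, at 2672 CPM in WT and 772 CPM in twi effector T cells and at 2575 and 916 CPM in cycling T cells, and its part in the result was not tested. All 13 mt- encoded subunits with enough UMIs were lower in twi effector T cells, and all 12 in twi cycling T cells. Of all genes, 3797 of 7752 and 1739 of 3396 were lower in these classes. For *mt-Nd1*, a core subunit of complex I, the level in effector T cells was 2320 CPM in WT and 1695 CPM in twi, with a ratio of 0.731 (0.677 to 0.789). For *mt-Co1*, the catalytic subunit of complex IV, it was 5068 and 4695 CPM, a ratio of 0.926 (0.881 to 0.975). The mt- encoded share was also lower in twi neutrophils, at 0.517% and 0.398%, and higher in twi NK cells, at 1.76% and 1.94%.

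**Figure D4:**
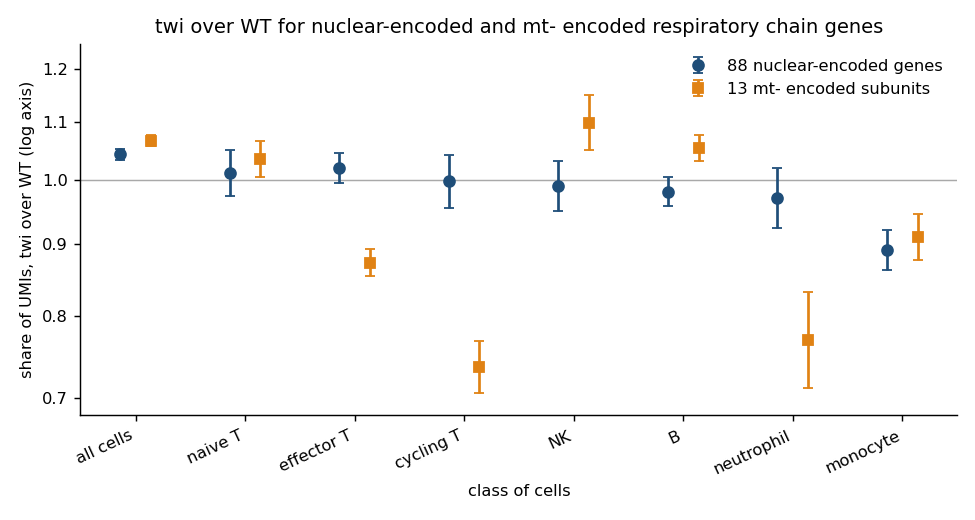
Share of UMIs in twi over WT (y axis, log axis) for the 88 nuclear-encoded genes (blue circles) and the 13 mt- encoded subunits (orange squares), over all cells and by class (x axis), with 95% counting intervals. The circles lie between 0.892 and 1.04, while the squares run from 0.736 in cycling T cells to 1.10 in NK cells.

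The balance of both genomes also differed between classes. There were 0.603 nuclear-encoded UMIs for each mt- encoded UMI in WT naive T cells and 0.590 in twi, 0.785 and 0.731 in B cells, 1.39 and 1.36 in monocytes, and 2.17 and 2.73 in neutrophils. Effector T cells had 0.754 in WT and 0.880 in twi, and cycling T cells 0.880 and 1.19. Neutrophils were thus low in both kinds of transcript, with the mt- encoded share 0.175 times that of naive T cells in WT and 0.130 times in twi, and the nuclear-encoded share 0.630 and 0.605 times.

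Few single members differed by 1.5 fold between genotypes. Over all cells, 1 of 88 members was at least 1.5 fold higher in twi (11.5% of all genes) and 1 at least 1.5 fold lower (15.9% of all genes), and the median log2 ratio of members was 0.04, against -0.03 for all genes. The higher one was *Ndufaf4*, an assembly factor of complex I, with 22.5 CPM in WT and 36.9 CPM in twi (ratio 1.65, 1.26 to 2.16). It was also higher in effector T cells, at 23.1 and 39.4 CPM (ratio 1.71, 0.829 to 4.07), and in B cells, at 17.3 and 33.2 CPM (ratio 1.92, 0.901 to 3.95), but both intervals hold 1. In neutrophils it had no UMI, which allows up to 4.58 CPM in WT and 15.5 CPM in twi. The lower one was the testis isoform *Cox6b2*, with 44 UMIs in WT and 24 in twi (ratio 0.426, 0.248 to 0.716). Here and in the counts by class below, members and all genes were not matched in UMIs per gene. Genes with few UMIs pass 1.5 fold more easily by counting error, and the part of this in the counts was not tested.

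Among members with at least 200 UMIs, the largest ratios after that of *Ndufaf4* were smaller within effector T cells than over all cells. *Ndufa5*, an accessory subunit of complex I, had 91.1 CPM in WT and 117 CPM in twi (ratio 1.29, 1.12 to 1.48), but 133 and 138 CPM in effector T cells. *Cox7b* (1.26), *Atp5g2* (1.23) and *Ndufa10* (1.22) had ratios of 1.13, 1.03 and 1.11 in effector T cells. At the other end, *Ndufs8*, an iron-sulfur core subunit of complex I, had 142 CPM in WT and 112 CPM in twi (ratio 0.784, 0.694 to 0.886), yet 249 and 225 CPM in B cells (ratio 0.904, 0.710 to 1.14), the class in which it was highest and which made up 43.8% of WT and 13.8% of twi barcodes. *Sdhd*, a membrane anchor of complex II, had 102 and 77.6 CPM (ratio 0.764, 0.661 to 0.884), and *Ndufs5* (0.813), *Ndufaf2* (0.846) and *Uqcrc1* (0.883) completed the 5 smallest ratios among members with at least 200 UMIs.

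Among the most counted members of each complex, the level over all cells was 760 CPM in WT and 779 CPM in twi for *Cox4i1* and 678 and 755 CPM for *Cox8a*, both of complex IV. For *Atp5e* and *Atp5l* of complex V it was 587 and 667 CPM, and 617 and 642 CPM. *Uqcrh*, the hinge protein of complex III, had 506 and 587 CPM, and *Uqcrb* 274 and 273 CPM. *Ndufa13* of complex I had 340 and 416 CPM, a ratio of 1.22 (1.14 to 1.31), and *Ndufa3* 378 and 376 CPM. *Sdhb* and *Sdha*, which carry the iron-sulfur clusters and the flavin of complex II, had 170 and 162 CPM, and 129 and 132 CPM. *Cycs* stood at 213 and 214 CPM and *Ndufaf3* at 39.3 and 37.4 CPM. Of these, only *Cox8a*, *Atp5e*, *Uqcrh* and *Ndufa13* had an interval of the ratio that excludes 1, all higher in twi.

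In naive T cells, 2 of 78 members were at least 1.5 fold higher in twi (11.6% of all genes) and 1 lower (9.4% of all genes). Complex II was the only complex whose interval excluded 1, with 115 UMIs in WT and 136 in twi (ratio 1.33, 1.03 to 1.72), and *Sdhb* had 112 and 178 CPM (ratio 1.59, 1.02 to 2.51). *Ndufb3* had a ratio of 1.58, *Cycs* of 0.688 and *Ndufs5* of 0.647, each with an interval that holds 1.

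In effector T cells, the class with most twi barcodes, 5 of 85 members were at least 1.5 fold higher in twi (18.1% of all genes) and 2 lower (11.9% of all genes). Complex IV stood at 0.541% in WT and 0.592% in twi, with a ratio of 1.09 (1.04 to 1.15), with 11 of its 13 members higher, whereas complex V had a ratio of 0.983 (0.939 to 1.03) and complex I one of 1.02 (0.975 to 1.07). Of all genes with at least 20 UMIs in the class, 3955 of 7752 were higher in twi. *Cox7a2l* had 430 and 517 CPM (ratio 1.20, 1.01 to 1.44) and *Cox5a* 254 and 322 CPM (ratio 1.27, 1.01 to 1.60). The core protein of complex III *Uqcrc2* was at 191 and 134 CPM (ratio 0.701, 0.536 to 0.930). *Ndufaf3* and *Atp5sl* had ratios of 1.60 and 0.635 from 7 and 14 WT UMIs, with wide intervals. *Atp5sl*, counted here with complex V by its symbol, is annotated as *Dmac2* in GENCODE and is known as an assembly factor of complex I.

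In cycling T cells, 8 of 78 members were at least 1.5 fold higher in twi (18.8% of all genes) and 5 lower (17.7% of all genes), and the WT class held only 16 barcodes. *Sdhd* had 193 CPM in WT and 94.9 CPM in twi (ratio 0.492, 0.279 to 0.892), and *Uqcrc1*, a core protein of complex III, 318 and 180 CPM (ratio 0.565, 0.369 to 0.880). *Ndufa12* and *Ndufv2* of complex I had ratios of 1.88 and 1.75 from 11 and 9 WT UMIs, with intervals that hold 1. The muscle isoform *Cox6a2* stood farthest from the rest, with no UMI in WT, which allows up to 28.9 CPM, and 26 UMIs in twi. These came from 4 barcodes, 1 of which held 16.

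In NK cells, 3 of 76 members were at least 1.5 fold higher in twi (11.6% of all genes) and 3 lower (14.6% of all genes). As a share of all UMIs, complex V was lower, at 0.673% in WT and 0.609% in twi (ratio 0.904, 0.838 to 0.976). Complex III was higher, at 0.203% and 0.234% (ratio 1.16, 1.01 to 1.32). Ribosomal protein transcripts took 21.62% of UMIs in WT and 26.45% in twi NK cells. Without mt- and ribosomal protein UMIs in the total, the summed ratio of the members was 1.059 in place of 0.990. Single complexes were not measured against that total, so the lower share of complex V holds for all UMIs only. *Atp5o*, which joins the catalytic head of complex V to its outer stalk, had 306 and 149 CPM (ratio 0.486, 0.309 to 0.754). *Ndufb5* had a ratio of 1.69 (1.04 to 2.82), *Ndufb9* of 0.628 (0.385 to 1.01) and *Atp5g3* of 1.45 (0.921 to 2.32).

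In B cells, 2 of 84 members were at least 1.5 fold higher in twi (8.13% of all genes) and 3 lower (13.7% of all genes). *Atp5sl* had 63.5 CPM in WT and 97.2 CPM in twi (ratio 1.53, 1.02 to 2.26), and *Ndufb7* 196 and 292 CPM (ratio 1.49, 1.19 to 1.86). *Ndufs1*, the largest iron-sulfur subunit of complex I, had a ratio of 0.761 (0.426 to 1.29) and *Ndufb4* of 0.801 (0.546 to 1.15). Without cycling barcodes, which were 5.04% of WT and 9.04% of twi B cells, the summed ratio was 0.940 (0.913 to 0.967) in place of 0.981.

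In neutrophils, 4 of 70 members were at least 1.5 fold higher in twi (12.8% of all genes) and 6 lower (15.6% of all genes). *Uqcrb*, a subunit of complex III, had 189 CPM in WT from 124 UMIs and 72.2 CPM in twi from 14 UMIs (ratio 0.382, 0.203 to 0.665). *Atp5k*, which helps complex V to form dimers, had 237 and 134 CPM (ratio 0.567, 0.359 to 0.862). *Cox7a2l* had 82.5 and 139 CPM (ratio 1.69, 1.02 to 2.73), and *Uqcrc1* had a ratio of 1.43 with an interval that holds 1.

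Monocytes were the class with the widest difference between genotypes. Of 81 members, 15 were at least 1.5 fold lower in twi (22.1% of all genes) and 1 higher (12.5% of all genes), and the median log2 ratio was -0.21, against -0.09 for all genes. Every complex had a ratio below 1, from 0.767 for complex II (0.616 to 0.955) over 0.868 for complex V (0.817 to 0.922) to 0.955 for complex III (0.865 to 1.05). *Ndufa4* had 629 CPM in WT and 376 CPM in twi (ratio 0.598, 0.468 to 0.759), *Cycs* 500 and 310 CPM (ratio 0.621, 0.473 to 0.810), and *Atp5g3*, one of 3 genes for the same ring subunit of complex V, 245 and 131 CPM (ratio 0.534, 0.352 to 0.799). *Ndufa12* had a ratio of 0.564. Of the 81 members, 21 were higher in twi, 3 of them with an interval above 1: *Ndufa13* with 258 and 403 CPM (ratio 1.56, 1.17 to 2.1), *Cox7a2l* with 400 and 527 CPM (ratio 1.32, 1.03 to 1.69) and *Uqcrh* with 532 and 676 CPM (ratio 1.27, 1.03 to 1.57). Of all genes, 1687 of 3898 were higher in twi. *Ndufa8* had a ratio of 1.34 (0.843 to 2.13).

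Without dividing cells, this difference in monocytes was not seen. Cycling barcodes were 10 of the 42 WT and 3 of the 52 twi monocytes, or 23.8% and 5.77%, and held 152885 of the 310165 UMIs of the WT class. Without them, the share of the 88 genes was 2.24% in WT and 2.26% in twi, with a ratio of 1.01 (0.964 to 1.05), and among cycling monocytes it was 3.11% and 3.10%, a ratio of 0.998 (0.938 to 1.06). In monocytes without cycling barcodes, 2 of 78 members were at least 1.5 fold higher in twi (12.5% of all genes) and 2 lower (14.2% of all genes). *Ndufa4* then had 477 and 344 CPM (ratio 0.720, 0.522 to 0.996), *Cycs* had a ratio of 0.758 (0.516 to 1.12), and *Ndufa13* one of 1.85 (1.26 to 2.79).

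**Figure D5:**
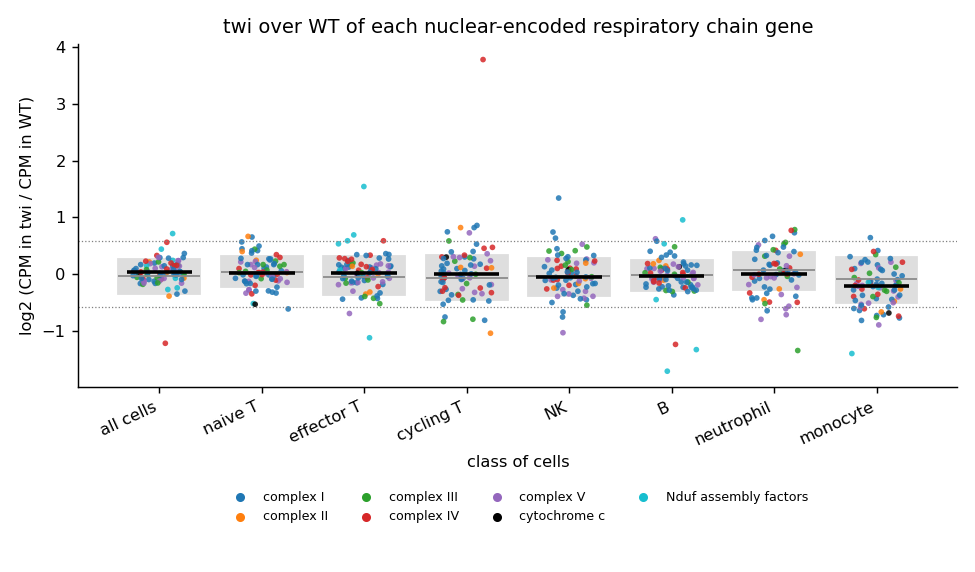
Log2 of CPM in twi over CPM in WT (y axis, 0.5 UMIs added) for each nuclear-encoded respiratory chain gene with at least 20 UMIs, over all cells and by class (x axis), coloured by complex. Black lines are the medians of these genes, grey boxes and lines the interquartile range and median of all genes, and dotted lines 1.5 fold; the member medians lie between -0.21 in monocytes and 0.04 over all cells, and the highest point is *Cox6a2* in cycling T cells.

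Some members had a class in which they stood out, which is given as a description since it was chosen after the values were seen. B cells were the class of 6 members that were at least 1.5 fold above the other classes in both libraries, of 85 with enough UMIs (22.4% of all genes). *Atp5sl* had 63.5 CPM in B cells and 16.1 CPM in the other classes of WT, and 97.2 and 22.9 CPM in twi, ratios of 3.95 (2.58 to 6.21) and 4.24 (2.84 to 6.22). *Ndufs8*, whose promoter is printed above, had 249 and 87.1 CPM in WT and 225 and 98.6 CPM in twi, ratios of 2.86 and 2.28. *Ndufaf3* had ratios of 1.76 and 2.39, *Atp5a1*, the alpha subunit of the complex V head, of 1.68 and 1.64, and *Sdha*, with NRF1 letters in its promoter, of 1.58 and 1.55.

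Naive T cells had 1 such member (5.6% of all genes), *Cox7a2l*, with ratios of 1.63 (1.40 to 1.88) and 1.68 (1.46 to 1.92). Cycling T cells had 3 (8.95% of all genes), among them *Ndufa4* with 1.85 and 1.70, and monocytes 8 (12.1% of all genes), among them *Ndufaf7*, a methyltransferase needed for complex I assembly, with 3.27 and 3.56, and *Ndufc2* with 2.23 and 1.87. No member stood 1.5 fold above the other classes in effector T cells (6.34% of all genes), NK cells (7.55% of all genes) or neutrophils (7.81% of all genes).

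Neutrophils were below the other classes for most members. In both libraries 63 of 85 members were at least 1.5 fold lower there, against 64.3% of all genes, so this depletion was shared with much of the transcriptome. The lowest were *Atp5g2*, with 50.4 CPM in neutrophils and 370 CPM in the other classes of WT (ratio 0.136, 0.0932 to 0.193) and 31.0 and 420 CPM in twi (ratio 0.0737, 0.0270 to 0.161), and *Ndufab1*, the mitochondrial acyl carrier protein, with 18.3 and 134 CPM in WT and 10.3 and 138 CPM in twi. *Ndufb7* was an exception, with 316 CPM in neutrophils and 210 CPM elsewhere in WT (ratio 1.51, 1.28 to 1.77) and 351 and 259 CPM in twi (ratio 1.36, 1.04 to 1.74).

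Where several genes encode the same subunit of complex IV, the widely expressed isoform carried nearly all counts. For subunit 6A of complex IV, *Cox6a1* had 1505 UMIs in WT and 1816 in twi and *Cox6a2* 40 and 76. For subunit 6B, *Cox6b1* had 1858 and 2480 UMIs and *Cox6b2* 44 and 24. *Cox7a2* had 1309 and 1587 UMIs and the muscle isoform *Cox7a1* was below the minimum, as did *Cox4i2* beside *Cox4i1*. The ring subunit of complex V was spread over all 3 of its genes, with 200 CPM in WT and 235 CPM in twi for *Atp5g1* (ratio 1.18, 1.07 to 1.29), 320 and 393 CPM for *Atp5g2* (ratio 1.23, 1.14 to 1.32), and 184 and 201 CPM for *Atp5g3* (ratio 1.09, 0.990 to 1.21). In neutrophils all 3 were at 25.8 to 50.4 CPM in either library.

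The 3 X-linked members did not differ in the same way between the libraries, whose cells differ in sex. *Cox7b* had 234 CPM in WT and 294 CPM in twi (ratio 1.26, 1.15 to 1.37), *Ndufb11* 225 and 231 CPM (ratio 1.03, 0.937 to 1.12) and *Ndufa1* 209 and 196 CPM (ratio 0.936, 0.851 to 1.03).

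Other mitochondrial gene lists gave a background to these values. Of all 10657 genes with at least 20 UMIs over all cells, 5051 were higher and 5606 lower in twi. Over all cells, 6 of the 17 genes of the citric acid cycle and pyruvate dehydrogenase were higher and 11 lower in twi, with a median log2 ratio of -0.14 and a ratio of sums of 0.922 (0.886 to 0.959). *Idh2*, which makes NADPH in mitochondria, had 79.9 CPM in WT and 35.9 CPM in twi (ratio 0.449, 0.370 to 0.544), *Fh1* a ratio of 0.650, *Dlst* of 1.17 and *Idh3a* of 1.28. Of 27 assembly factors of complexes II to IV, 18 were higher and 9 lower, with a median of 0.10, and *Uqcc2*, needed for cytochrome b, had 77.8 and 125 CPM (ratio 1.61, 1.40 to 1.86), *Coa5* a ratio of 1.36, *Sdhaf2* of 0.812 and *Pet100* of 0.736.

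Of 11 carriers and pores, 5 were higher and 6 lower, with a median of -0.01. *Ucp2*, an inner membrane carrier, had 573 and 431 CPM (ratio 0.753, 0.708 to 0.800), *Atpif1*, the inhibitor of complex V, a ratio of 0.700 (0.626 to 0.781), *Tomm7* of 1.17 and *Tomm20* of 1.27. Of 12 regulators, 11 had enough UMIs, 4 higher and 7 lower with a median of -0.24. *Nrf1* had a ratio of 0.844 (0.677 to 1.05) and *Gabpb1* of 0.673 (0.532 to 0.851), *Yy1* of 1.34 (1.13 to 1.58) and *Myc*, a driver of growth, of 1.77 (1.45 to 2.17), from 38.2 CPM in WT to 67.6 CPM in twi. Among the 13 mt- encoded subunits, 10 were higher and 3 lower over all cells with a median of 0.09, and the ratios ran from *mt-Nd4l* (0.911) and *mt-Cytb* (0.969) to *mt-Co3* (1.12) and *mt-Nd2* (1.13). The libraries' class make-up enters all these values over all cells.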

How the data were processed

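The deposited tables hold unnormalised UMI counts for every gene and barcode, 1 table for each genotype's library. The labels name Cell Ranger 2.1.1 and mm10, which is GRCm38, without giving the role of either. The paper that reported the data names STAR for the alignment. The gene positions and promoters used here are of the same build. The members of the gene group, the classes and the other lists were chosen with earlier results of these data known.

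Barcodes with more than 15% mt- UMIs were left out. Classes were gated on summed marker UMIs per barcode: at least 2 for T (*Cd3d*, *Cd3e*, *Cd3g*), NK and monocyte markers, at least 3 for B cell markers, and at least 3% of UMIs from neutrophil granule genes. T cells were split by cycling (at least 3), effector and naive genes. Barcodes with no lineage, more than 1 lineage, other T cells and barcodes with at least 5 *C1qa*, *C1qb* and *C1qc* UMIs were kept apart. Doublets were treated only by keeping barcodes with markers of more than 1 lineage out of the named classes. These barcodes, 36 in WT and 35 in twi, stayed in the values over all cells and in the class mix. They held 7.6% of WT and 4.1% of twi UMIs. Each gate had barcodes at its limit, for example 97 of 1271 WT and 131 of 1207 twi barcodes with 1 or 2 T cell UMIs.

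UMIs were summed per class and library and given as shares or CPM. Shares have exact Poisson intervals and ratios exact conditional intervals (scipy 1.17.1, numpy 2.4.6). Log2 ratios had 0.5 UMIs added. The count of a 3′ assay does not scale with gene length, so counts were not divided by it. Different genes were ranked by UMIs only to name the most counted members, and isoforms were compared by UMIs or CPM. With 1 library per group no p-value is given. The ratios and their intervals were tried on counts simulated with known folds and counting error alone. The gates, the class mix and differences between animals were not simulated. With 0.5 UMIs added, 3.4% of genes simulated without a change passed 1.5 fold in each direction over all cells. In cycling T cells 13.2% passed it upward and 12.7% downward. Named genes are the 2 most counted members of each complex, the 5 largest and smallest ratios over all cells (at least 200 UMIs) and of cycling to naive T cells (at least 50 UMIs), the 2 largest and smallest per class (at least 50 UMIs), isoforms, X-linked members, and the 2 largest and smallest of each other list. Genes that stand out in a class, in single barcodes or in monocytes without cycling cells were added after the values were seen. *Trac* and *Ighm* were not used here. The values of some named genes were left out of the text. Positions of all 88 members were matched in GENCODE by gene ID, and promoters for 71 by symbol. Overlapping genes and near-identical pseudogenes could share reads in the authors' counting.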

Additional observations from a re-analysis of the deposited data

Results flagged for a closer look

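A difference between classes in the direction of twi against WT marked 10 values, and none of these differences was tested, since each genotype is 1 library. The share of the 88 nuclear-encoded genes was lower in twi monocytes (ratio 0.892) and higher in twi C1q-positive barcodes (ratio 1.71, 1.54 to 1.89), which are few, 18 in WT and 15 in twi. The share of the 13 mt- encoded subunits was higher in twi naive T cells (1.03), NK cells (1.10), B cells (1.05) and C1q-positive barcodes (2.49), and lower in twi effector T cells (0.873), cycling T cells (0.736), neutrophils (0.770) and monocytes (0.911). Each of these 10 intervals excludes 1 by counting error alone. The WT neutrophils held 3388 mt- encoded UMIs and the twi neutrophils 772, the fewest of the 7 classes in twi. The WT cycling T cells had the fewest barcodes, 16, and 2976 mt- encoded UMIs.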

How the results depend on the processing

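Of 136 values of the 12 summed ratios under other settings, 95 stayed within the counting interval of the reported value, and 38 moved out of it. The other 3 had an interval that excluded 1 and came to lie on the other side of 1. Among them is the mean per barcode at the WT class mix, where WT and twi had unlike weights, so that value is not a like-for-like reversal. Without mt- and ribosomal protein UMIs in the total, the ratio of twi to WT was 1.16 over all cells, 1.06 in NK cells, 1.01 in B cells and 0.979 at the WT class mix, and cycling over naive T cells was 1.17 in WT and 1.20 in twi. Scaled to the median gene, the ratios were 1.06 over all cells, 0.923 in neutrophils, 0.923 in monocytes and 0.986 at the WT class mix, and cycling over naive T cells was 1.29 and 1.17. With each UMI minimum of the gates raised by 1, effector T cells gave 1.05 and monocytes 0.852. Thinning to 1000 UMIs per barcode left out 106 WT and 20 twi barcodes, and the classes were gated anew on the thinned counts with the same minimums. The ratios were then 1.09 in effector T, 0.840 in cycling T, 0.898 in NK, 0.956 in B cells, 0.921 in neutrophils and 0.936 in monocytes. Cycling over naive T cells in twi was 1.14, and nuclear over mt- encoded UMIs was 0.890. Without the deepest 5% of barcodes, the ratios were 1.09 over all cells, 1.06 in cycling T cells and 0.983 at the WT class mix, and nuclear over mt- encoded UMIs was 1.03 in place of 0.978, on the other side of 1. As a mean per barcode, the ratios were 1.07 over all cells and 0.952 in monocytes. Cycling over naive T cells was then 1.35 in WT and 1.32 in twi, and nuclear over mt- encoded UMIs was 0.946. At the WT class mix this setting gave 1.00 (above 1), but with UMI weights for twi and barcode weights for WT. In barcodes with a Y transcript and no *Xist*, the ratios were 1.01 over all cells, 1.06 in naive T cells, 1.03 in neutrophils and 0.978 at the WT class mix. In cycling T cells the ratio was 1.12, from 10 WT and 8 twi barcodes. Cycling over naive T cells in twi was 1.55 in this setting, and nuclear over mt- encoded UMIs was 0.930. Without cycling barcodes, a setting added with the values in view, B cells gave 0.940 and monocytes 1.01. The cause of the other moves was not tested.

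The 21 medians of members lay between -0.22 and 0.03 and moved by no more than the counting error of the summed ratio of their class. By contrast, 18 of 28 counts past 1.5 fold moved with the minimum of UMIs. In cycling T cells the higher members went from 8 to 15 with no minimum and to 4 with a minimum of 50 UMIs. The 16 WT cycling T cells, the 3 cycling twi monocytes and the 60 twi neutrophils limit what can be said of their classes. No paired analysis was possible because each genotype has 1 library.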

Other observations

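Barcodes that the gates kept apart gave further values. The C1q-positive barcodes carried microglial genes in both libraries, with 3558 CPM of *Tmem119* in WT and 1387 CPM in twi, and 5719 and 671 CPM of *P2ry12*, a gene of resting microglia. The nuclear-encoded respiratory chain genes took 1.12% of their UMIs in WT and 1.91% in twi, with medians per barcode of 1.14% and 1.77%. Without the deepest barcode of each library the shares were 1.10% and 1.70%. The mt- encoded subunits took 0.934% and 2.32%, and ribosomal protein transcripts 7.29% and 14.3%, so that several housekeeping groups were higher in the twi barcodes. *Mki67*, a gene of dividing cells, had no UMI in the WT and 18 UMIs in the twi C1q-positive barcodes.

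*Cox6a2* came from few barcodes. In WT, 30 of its 40 UMIs lay in 19 of 556 B cells, while in twi 24 UMIs lay in 10 of 548 effector T cells, 26 in 4 of 45 cycling T cells and 15 in 2 of 62 NK cells, 13 of them in 1 barcode. Other T cells, which passed neither the naive nor the effector gate, had shares of the 88 genes of 1.84% in WT and 1.86% in twi, with a ratio of 1.01 (0.961 to 1.05).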
